A study of Capra hircus with 6 samples.

Results

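The insulin-like growth factor (IGF) system of goat intramuscular preadipocytes, which are precursors of the fat cells found between muscle fibres, was described by 10 genes. These were the ligands IGF1 and IGF2, the receptors IGF1R, IGF2R and INSR, and the binding proteins IGFBP2, IGFBP3, IGFBP4, IGFBP5 and IGFBP6. The genes were chosen by name, each name occurred once in the deposited FPKM table, and they are 10 of the 27271 genes in the files. All 10 had reads, and 8 had enough of them to pass the filter on low counts and be tested. IGF1 and INSR did not pass it.

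IGF1 and IGF2 are secreted growth factors that signal through the tyrosine kinase IGF1R, and the closely related INSR is the receptor of insulin. IGF2R binds IGF2 at the cell surface and carries it to the lysosome, where it is degraded. The binding proteins hold the ligands outside the cell and set how much of them reaches a receptor, and proteases that cut the binding proteins release the ligands again. In fat precursor cells this system is known for driving proliferation and for taking part in the start of adipocyte differentiation.

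The cells came from the longissimus dorsi of 3-day-old Jianzhou goats, were kept as those that adhered within 2 h, and were used at passage 3. NC groups (genotype WT in the labels, n = 3) received a negative control siRNA and Si-LIPG groups (genotype LIPG Knock down, n = 3) received an siRNA against LIPG, the gene of endothelial lipase. Cells of both groups were then induced to differentiate for 48 h in the presence of oleic acid at 50 μmol/L. The methods of the study call its replicates biological, but the labels do not say whether the 3 libraries of a group came from separate cultures or animals, so p values measure the spread between these libraries, which may be technical. Values of single libraries are given below in the order of their numbers, for NC first and then for Si-LIPG.

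Libraries held 524776 to 703680 reads counted on genes in the NC groups and 864882 to 1051230 in the Si-LIPG groups, which is 0.997% to 1.53% and 1.80% to 2.88% of all reads in the files. Reads on no gene made up 91.6% to 93.7% of each library. The library protocol keeps the strand of the RNA, and the strand setting of the counting is not given in the sources used here. The mitochondrial ND6, the protein gene on the other strand from the remaining 12, had at least 22.6 times their median count per kb in every library. This ratio was 99.3, 54.2 and 90.5 under NC, and 49.8, 24.8 and 22.6 under Si-LIPG, without overlap. What this difference between the groups means for the fold changes was not tested. Whether the reads counted on the IGF genes came from their own strand was not tested. LIPG was counted 0, 2 and 0 times under NC, and 0, 2 and 2 times under Si-LIPG. With so few counts the silencing could not be seen in these libraries, which leaves the group labels without this check. The study itself reported the knockdown by RT-qPCR and, for the siRNA it went on to use, by Western blot. NC 1 stood apart from the other libraries, with the smallest TMM normalization factor (0.601, against 0.927 to 1.37 in the others), and the fold changes of IGF genes that it moved most are also given without it. Of the preadipocyte markers, PDGFRA, PDGFRB, THY1, ENG and NT5E were counted in every library and DLK1 in none. The summed FPKM of the 8 preadipocyte markers in the files, LY6E and ZNF423 among them, was 285 to 434 in the NC groups and 483 to 574 in the Si-LIPG groups. NT5E was the largest part (135 to 251 and 288 to 397), while ENG lay lower under Si-LIPG (72.5 to 91.4 and 51.5 to 67.3), both without overlap. Of 8 adipocyte markers, LPL had 0 counts in every library and the summed FPKM was 10.1 to 47.9 over the 6 libraries. By RT-qPCR, the study did report LPL mRNA in its cells. The endothelial markers CDH5, KDR and TEK and the immune marker PTPRC were at 0 in every library. Myogenic markers were present (summed FPKM 58.9 to 113.7 in the NC groups and 101.1 to 109.0 in the Si-LIPG groups). The FPKM of DES was 22.7, 27.5 and 17.9 under NC, and 33.7, 33.0 and 37.5 under Si-LIPG. MYOD1 (2.22, 2.76 and 3.31 against 5.38, 12.0 and 5.69) and PAX7 (0, 0 and 0.956 against 1.55, 2.05 and 3.52) were also higher without overlap. The rest overlapped, TNNT1 with 12.4, 39.5 and 24.6 against 23.8, 17.6 and 8.23. ACTA2 and TAGLN are markers of smooth muscle cells and pericytes that cultured fibroblast-like cells also express. They made up most of a summed FPKM of 2710 to 5416 in the NC groups and 6170 to 6638 in the Si-LIPG groups. These sums did not overlap. In FPKM, 30.2% of all tested genes were higher under Si-LIPG without overlap. The median log2 fold change of all tested genes was 0.76 with limma on log2(FPKM + 1), so higher marker values lie within a general shift on this scale. The other way round, the FPKM of MYH11, a myosin of smooth muscle, was 296, 204 and 201 under NC, and 171, 116 and 115 under Si-LIPG, and it was the 1 of 4 tested markers of this kind with an adjusted p under 0.05 (edgeR adjusted p = 0.0485). The part of these cell types in the results was not tested.

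The IGF genes covered a wide range of levels. In RNA from whole cultures, fewer cells of a type and less RNA per cell cannot be told apart. FPKM values, which the authors scaled to the length of each gene and to the gene-assigned reads of a library, allow levels to be compared between genes within a library. IGFBP6 had the highest FPKM, 288 ± 150.4 under NC and 553 ± 136.6 under Si-LIPG (SD, n = 3 each), and its mean lay above that of 98.8% of the 14848 genes with a count. It binds IGF2 in preference to IGF1. IGF2 followed, with 84.7 ± 48.8 (SD, n = 3) and 197 ± 33.6 (SD, n = 3). IGFBP2 (73.6 ± 28.2 and 106.2 ± 6.75, SD, n = 3 each) and IGF2R (63.2 ± 25.2 and 113.5 ± 11.9, SD, n = 3 each) came next. IGFBP5, IGFBP4 and IGF1R had mean FPKM values over the 6 libraries of 32.8, 32.3 and 31.3, and IGFBP3 had 18.3. INSR (mean 3.74) and IGF1 (mean 1.27) were lowest, above 41.5% and 21.8% of the genes with a count.

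**Figure D1:**
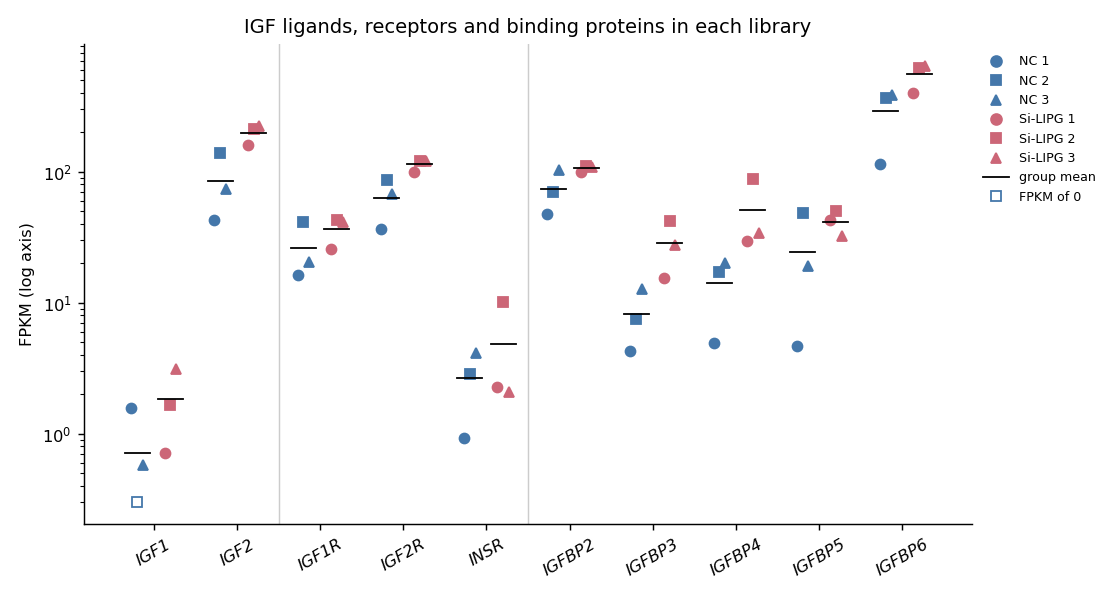
FPKM of each IGF gene in the 3 NC (blue) and 3 Si-LIPG (red) libraries on a log axis, with a bar at each group mean and an open symbol where FPKM was 0. IGFBP6 had the highest mean and IGF1 the lowest, and NC 1 was the lowest NC library for every gene except IGF1.

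Some steps of this order held in every library and others did not. IGFBP6 exceeded IGF2, IGF2R exceeded IGFBP5, IGF1R exceeded IGFBP3 and IGFBP3 exceeded INSR in 6 of 6 libraries. IGF2 exceeded IGFBP2 in 4 of 6 libraries, and INSR exceeded IGF1 in 4 of 6. IGFBP2 and IGF2R, IGFBP5 and IGFBP4, and IGFBP4 and IGF1R each changed places between libraries, the gene with the higher mean being ahead in 2 of 6, so that these neighbours were not separated. The gene lengths behind the FPKM values, read from the ratio of FPKM to counts, were 714, 777 and 819 bases for IGFBP6, IGFBP4 and IGFBP5, and 7 of the 10 lengths were divisible by 3, against 60.2% of all genes with a count. A length divisible by 3 is what a gene model holding only the coding part would have, and reads on untranslated regions are not counted in such a model. A model with untranslated regions can have such a length too. Among the 7 were IGF1 with 4884 bases and IGFBP2 with 2418, and which models hold untranslated regions was not tested.

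Silencing of LIPG was compared with the negative control to ask whether the IGF genes differed between the groups. No IGF gene passed the test. After TMM normalization, edgeR's quasi-likelihood test gave the following counts: 0 of the 8 tested genes had a Benjamini-Hochberg adjusted p under 0.05, against 6.51% of the 6574 genes tested (0.974% higher and 5.54% lower in Si-LIPG), and 0 had an unadjusted p under 0.05, against 20.7% (7.83% higher and 12.9% lower, all of them with more than a 1.5-fold change). DESeq2 also gave 0 of 10 genes at either threshold, though it gave IGF1 no adjusted p. Of the 14848 genes with a count, 4.01% had a DESeq2 adjusted p under 0.05. An unadjusted p under 0.05 with more than a 1.5-fold change was found for 11.4% of them. The values of 6 genes were higher and those of IGF1R and IGFBP2 were lower in the Si-LIPG groups, with log2 fold changes from -0.07 to 1.28. The median log2 fold change was 0.37 for the 8 genes and 0.16 for all tested genes. For IGF2, IGFBP3 and IGFBP4 all 3 Si-LIPG libraries lay above all 3 NC libraries in TMM-normalized CPM, as 15.2% of all tested genes did, and no IGF gene had its groups apart in the lower direction (13.4% of all tested genes, and 28.7% in either direction). In FPKM the same held for 5 IGF genes, with IGF2R and IGFBP6 added (30.2% of all tested genes), and in counts per all reads in the files for 7 (51.9%).

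Of the ligands, IGF2 had counts of 24, 89 and 55 under NC, and 147, 222 and 249 under Si-LIPG. As TMM-normalized CPM these were 77.8, 160.3 and 86.7 against 165.9, 180.9 and 181.9. The groups did not overlap, but NC 2 lay close below Si-LIPG 1. The fold change was 1.61 (95% interval 0.970 to 2.68), or 0.69 on the log2 scale with a standard error (SE) of 0.34 (edgeR adjusted p = 0.274). This log2 fold change was 0.50 without NC 1, and it was 1.09 without NC 2 (edgeR adjusted p = 0.105). When only the 2757 genes counted 10 or more times per library were tested, of which 714 (25.9%) had an adjusted p under 0.05, the log2 fold change of IGF2 was 0.95 (edgeR adjusted p = 0.0473). It was the 1 of the 5 IGF genes tested in that setting with an adjusted p under 0.05.

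IGF1, the ligand that growth hormone induces in many tissues, was close to the limit of detection. Its counts were 4, 0 and 2 under NC, and 3, 8 and 16 under Si-LIPG, and the groups overlapped. A count of 0 allows up to 3 counts as a one-sided limit, which is an FPKM of 1.02 in NC 2 and covers counting error only. With no filter on low counts its log2 fold change was 0.72 with a standard error of 1.40 (edgeR adjusted p = 0.830).

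Of the receptors, IGF2R was counted most, with 146, 398 and 364 reads under NC, and 663, 914 and 965 under Si-LIPG. Its TMM-normalized CPM was 473, 717 and 574 against 748, 745 and 705. Si-LIPG 3 lay below NC 2, so the groups overlapped on this scale. The fold change was 1.24 (95% interval 0.795 to 1.95), with an adjusted p of 0.625 from edgeR. On the log2 scale it was 0.31, against 0.16 without NC 1 and 0.49 without NC 2. IGF1R, the receptor through which both ligands signal, had a TMM-normalized CPM of 113.5, 183.7 and 93.0 under NC, and 102.7, 140.1 and 130.02 under Si-LIPG. All 3 Si-LIPG values fell within the range of the NC values. The fold change of IGF1R was 0.955 (95% interval 0.572 to 1.59), with an adjusted p of 0.941 from edgeR, and its direction turned with the scaling, as given below. INSR had counts of 2, 7 and 12 under NC, and 8, 41 and 9 under Si-LIPG, where Si-LIPG 2 stood above the other libraries and the rest overlapped. With no filter on low counts the log2 fold change of INSR was 0.37 with a standard error of 0.85 (edgeR adjusted p = 0.861).

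Of the binding proteins, IGFBP6 and IGFBP2 had many counts and the others few. IGFBP6 had a TMM-normalized CPM of 139.4, 281.0 and 305.7 under NC, and 275.3, 355.3 and 351.3 under Si-LIPG. Only NC 1 lay far from the others, and Si-LIPG 1 lay below NC 2 and NC 3. The fold change of IGFBP6 was 1.34 (95% interval 0.813 to 2.21, edgeR adjusted p = 0.538), and its log2 fold change was 0.14 without NC 1. IGFBP2 had 194.5, 183.7 and 277.4 against 232.4, 215.1 and 202.3, so that the Si-LIPG libraries lay inside the range of the NC libraries. Its fold change was 0.988 (95% interval 0.629 to 1.55, edgeR adjusted p = 0.983). For IGFBP2 the interval leaves out a change of 2-fold in either direction on the TMM scale, as do the intervals of IGF1R and IGF2R given above.

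IGFBP3, the main carrier of IGF in blood, had counts of 2, 4 and 8 under NC, and 12, 37 and 26 under Si-LIPG. As TMM-normalized CPM these were 6.48, 7.20 and 12.6 against 13.5, 30.1 and 18.99, and the groups did not overlap. The fold change was 2.30, but its 95% interval ran from 0.758 to 7.00 (edgeR adjusted p = 0.403). IGFBP4, which the protease PAPPA cuts to release IGF, had counts of 2, 8 and 11 against 20, 67 and 28. Its TMM-normalized CPM was 6.48, 14.4 and 17.3 under NC, and 22.6, 54.6 and 20.5 under Si-LIPG. The groups did not overlap, and the highest value was in Si-LIPG 2. The fold change of IGFBP4 was 2.43 (95% interval 0.923 to 6.40, edgeR adjusted p = 0.288), and its log2 fold change of 1.28 was 0.70 without Si-LIPG 2 and 1.01 without NC 1. IGFBP5, a binding protein that also attaches to the extracellular matrix, had counts of 2, 24 and 11 against 30, 40 and 28. Its TMM-normalized CPM was 6.48, 43.2 and 17.3 against 33.8, 32.6 and 20.5, with NC 2 above every Si-LIPG library. The log2 fold change was 0.31 (SE 0.64, edgeR adjusted p = 0.840) and became -0.08 without NC 1 and 1.17 without NC 2. The biological coefficient of variation fitted for IGFBP3, IGFBP4 and IGFBP5 was 47.0% to 48.1%, against 27.0% to 29.9% for the 5 tested genes with a mean count above 100. These 3 genes also had the widest intervals.

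**Figure D2:**
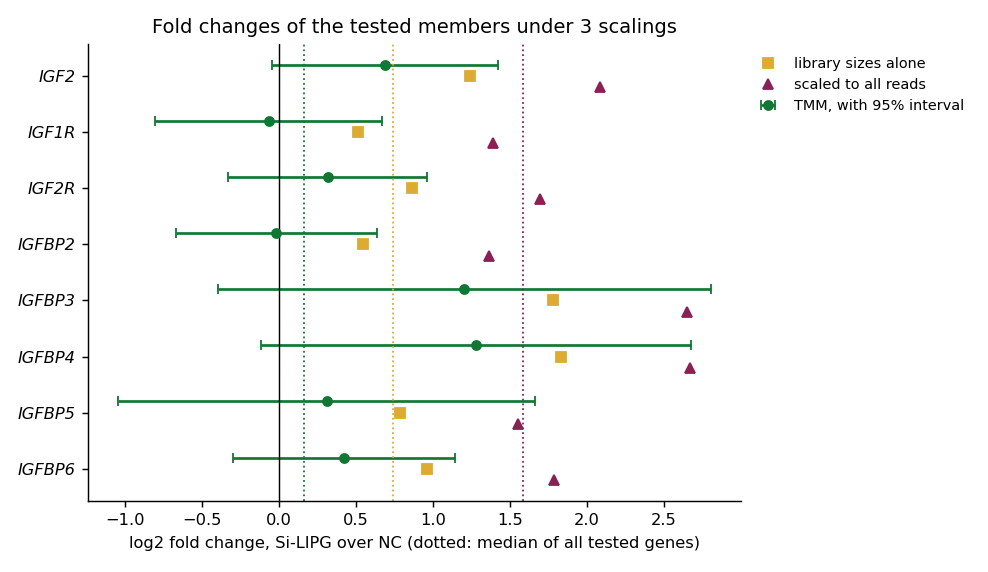
Log2 fold changes (Si-LIPG over NC) of the 8 tested IGF genes with TMM (circles, with 95% intervals), by library sizes only (squares) and scaled to all reads in the files (triangles), with a dotted line at the median of all 6574 tested genes in each scaling. All TMM intervals include 0, and the values of each gene move up with the dotted lines, from a median of 0.16 to 0.74 and 1.58.

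The directions of IGF1R and IGFBP2 depended on how the libraries were scaled to each other, and those of the other 6 tested genes did not. The median log2 fold change of all tested genes moved from 0.16 with TMM to 0.74 when only library sizes were used, and to 1.58 with all reads in the files as the scale. IGF1R moved from -0.07 to 0.51 and 1.39, and IGFBP2 from -0.02 to 0.55 and 1.37, so that all 8 genes had positive values in the latter scalings. Scaled to all reads, IGF2 (log2 fold change 2.08, edgeR adjusted p = 0.0476) and IGF2R (1.69, edgeR adjusted p = 0.0462) passed the threshold, as did 11.4% of all tested genes in the higher direction and 0 in the lower. At an unadjusted p under 0.05 and more than a 1.5-fold change, 5 of the 8 genes passed with library sizes alone (30.2% of all tested genes) and 7 when scaled to all reads (46.1%). Relative to the median of all genes in that scaling, IGF2 lay 0.50 higher and IGF2R 0.11 higher, IGFBP3 and IGFBP4 lay 1.06 and 1.08 higher, and IGF1R and IGFBP2 lay at -0.19 and -0.22. The share of reads counted on genes moved with the groups, and its part in these values was not tested. With that share as a covariate, 0 of the 8 genes had an unadjusted p under 0.05, and IGF2 had a log2 fold change of 0.42 (edgeR adjusted p = 1.000). Of all tested genes, 2.04% had an unadjusted p under 0.05 and more than a 1.5-fold change in this setting, and 0 had an adjusted p under 0.05. The share did not overlap between the groups, so this setting can hardly tell the share from the group.

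Ratios between genes within a library do not depend on the scaling of libraries. These ratios were chosen after the values were seen and were not tested. The FPKM of IGF2 was 2.63, 3.35 and 3.58 times that of IGF1R under NC, and 6.20, 4.96 and 5.37 times under Si-LIPG. The means were 3.19 ± 0.494 (SD, n = 3) and 5.51 ± 0.635 (SD, n = 3), and the groups did not overlap. Of all tested genes, 12.4% had a ratio to IGF1R that was higher without overlap under Si-LIPG. IGF2 over IGF2R was 1.29 ± 0.277 (SD, n = 3) and 1.73 ± 0.131 (SD, n = 3), and IGF2R over IGF1R was 2.54 ± 0.662 (SD, n = 3) and 3.21 ± 0.592 (SD, n = 3). For both of these ratios NC and Si-LIPG libraries overlapped. The summed FPKM of the 5 binding proteins was 3.97, 3.66 and 7.35 times that of IGF1 and IGF2 together under NC, and 3.64, 4.28 and 3.76 times under Si-LIPG, which also overlapped.

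**Figure D3:**
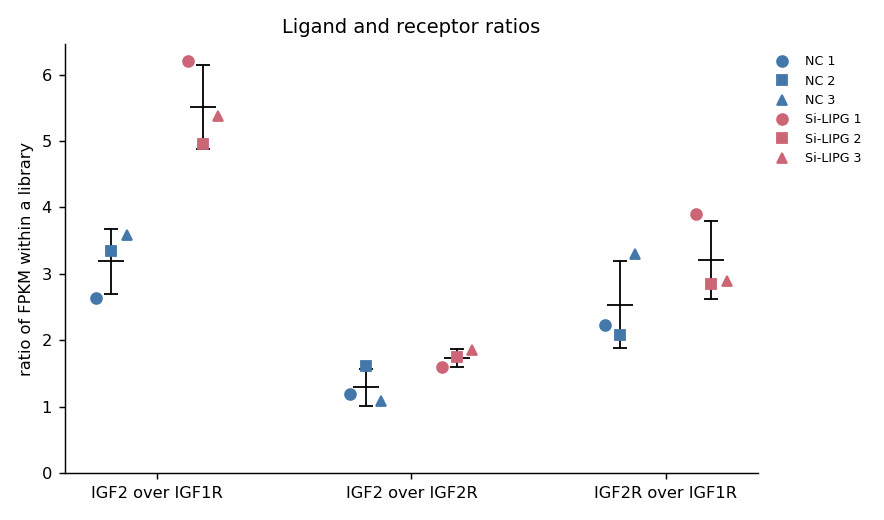
Ratios of FPKM within each library for IGF2 over IGF1R, IGF2 over IGF2R and IGF2R over IGF1R, with symbols for the 3 NC (blue) and 3 Si-LIPG (red) libraries and black bars for the mean and SD. The groups are apart for IGF2 over IGF1R (3.19 against 5.51) and overlap for the other ratios.

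Among the 5 chosen binding proteins, IGFBP6 had the largest share in every library. IGFBP6 made up 65.3%, 71.7% and 71.3% of the summed FPKM of the 5 binding proteins under NC, and 68.0%, 68.1% and 75.9% under Si-LIPG. IGFBP2 was second, with 26.9%, 13.8% and 19.1% against 16.9%, 12.2% and 12.9%. The groups overlapped for both. The share of IGFBP4 was 2.79%, 3.38% and 3.72% under NC, and 5.12%, 9.62% and 4.06% under Si-LIPG, and that of IGFBP3 was 2.43%, 1.47% and 2.35% against 2.67%, 4.62% and 3.28%. These minor shares were higher in every Si-LIPG library than in every NC library, by 2.97 and 1.44 percentage points on average (two-sided exact permutation test, p = 0.1 for each, the smallest p that 3 libraries against 3 allow, with 5 shares compared). Without Si-LIPG 2 the differences were 1.30 and 0.894 percentage points. Of all tested genes, 6.77% were higher without overlap in FPKM over the same sum. The share of IGFBP5 was 5.26% ± 3.80 under NC and 5.53% ± 1.72 under Si-LIPG (SD, n = 3 each) (exact permutation p = 0.9). IGFBP7, a related protein that binds IGF weakly and was not among the 10 genes, had a TMM-normalized log2 fold change of -0.04 (edgeR adjusted p = 0.961). It is not part of these shares. Its FPKM was 117.8, 156.5 and 185.5 under NC, and 175.9, 240.7 and 254.9 under Si-LIPG. In NC 1 this was above the 114.8 of IGFBP6.

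**Figure D4:**
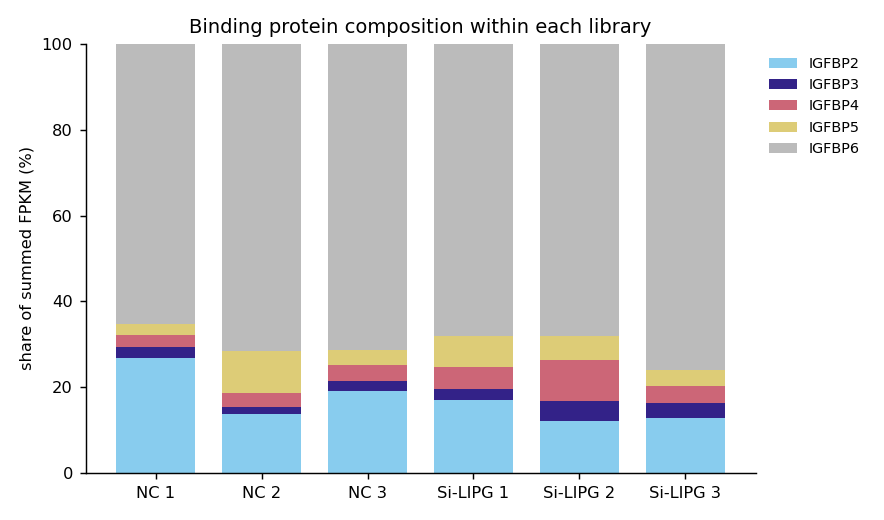
Share of each binding protein in the summed FPKM of IGFBP2 to IGFBP6, in percent, as 1 stacked bar per library. IGFBP6 takes 65.3% to 75.9% of each bar, and the bands of IGFBP3 and IGFBP4 are wider in the 3 Si-LIPG libraries than in the 3 NC libraries.

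Correlations between the 8 tested genes ran from negative to positive, and they were not set against those of other gene pairs. Over the 6 libraries, Pearson's r of log2 CPM was 0.95 between IGF2 and IGF2R and 0.92 between IGFBP3 and IGFBP4, and -0.80 between IGF1R and IGFBP2. The median over the 28 pairs was 0.56, and 23 pairs had r above 0. These values describe 6 libraries that share the group difference and, for the tested genes other than IGF1R and IGFBP2, the lowest values in NC 1. The patterns over the 6 libraries that were most like that of IGFBP6 included those of ENSCHIG00000025646, which the files give without a name, and TTYH3 (Pearson's r 0.99 for each, among the 950 genes whose mean count was 100 or more).

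Neighbouring genes were read from RefSeq (goat assembly ARS1.2), which lists each of the 10 once. IGFBP2 and IGFBP5 are next to each other among the protein genes, IGFBP3 is next to IGFBP1, and IGF2 is next to INS, the insulin gene. IGFBP1 was counted 3 and 6 times in Si-LIPG libraries 2 and 3 and 0 times in the others, and INS was at 0 in every library. The one gene annotated as overlapping an IGF gene or lying within 1 kb of it was the microRNA gene MIR483 at IGF2.

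The other genes of the pathway were counted from a list of 100 names in 6 roles, of which 86 were in the files and 50 were tested. With edgeR's quasi-likelihood test, 0 of the 50 had an adjusted p under 0.05 (6.51% of all tested genes), and 5 were at the study's criterion, a change of more than 1.5-fold at an unadjusted p under 0.05 (20.7% of all tested genes). DESeq2 gave an adjusted p under 0.05 to 3 of the 80 list genes with a count, against 4.01% of all genes with a count. The log2 fold changes of 39 of the 50 (78.0%) were above 0, against 58.4% of all tested genes, and their median log2 fold change was 0.40 against 0.16. With library sizes alone 20 of the 50 genes were at the same criterion (30.2% of all tested genes), and with the gene-assigned share of reads as a covariate 0 were (2.04% of all tested genes).

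Among 9 tested proteins that act on IGF outside the cell, the values of 7 were higher in the Si-LIPG groups (58.4% of all tested genes). An unadjusted p under 0.05 was found for 2 of the 9 (20.7% of all tested genes). ADAM9, a membrane metalloprotease, had a TMM-normalized CPM of 103.8, 180.1 and 69.3 under NC, and 227.9, 295.8 and 295.8 under Si-LIPG. The groups did not overlap, and ADAM9 differed by 1.21 on the log2 scale (SE 0.37, edgeR adjusted p = 0.0602, DESeq2 adjusted p = 0.0335). IGFALS, the acid-labile subunit that holds IGF and IGFBP3 or IGFBP5 in a complex in blood, had counts of 16, 12 and 19 against 11, 3 and 5. Its TMM-normalized CPM was 34.5 ± 15.6 under NC and 6.17 ± 5.44 under Si-LIPG (SD, n = 3 each), a log2 fold change of -2.49 (SE 0.79, edgeR adjusted p = 0.0738, DESeq2 adjusted p = 0.0394). It was -0.59 with the gene-assigned share of reads as a covariate. The counts of PAPPA, which cuts IGFBP4, were 0, 23 and 4 against 9, 34 and 27, and its inhibitor STC2 had 4, 30 and 24 against 32, 75 and 85. Both overlapped between the groups after TMM normalization, with adjusted p values of 0.934 and 0.592 from edgeR.

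**Figure D5:**
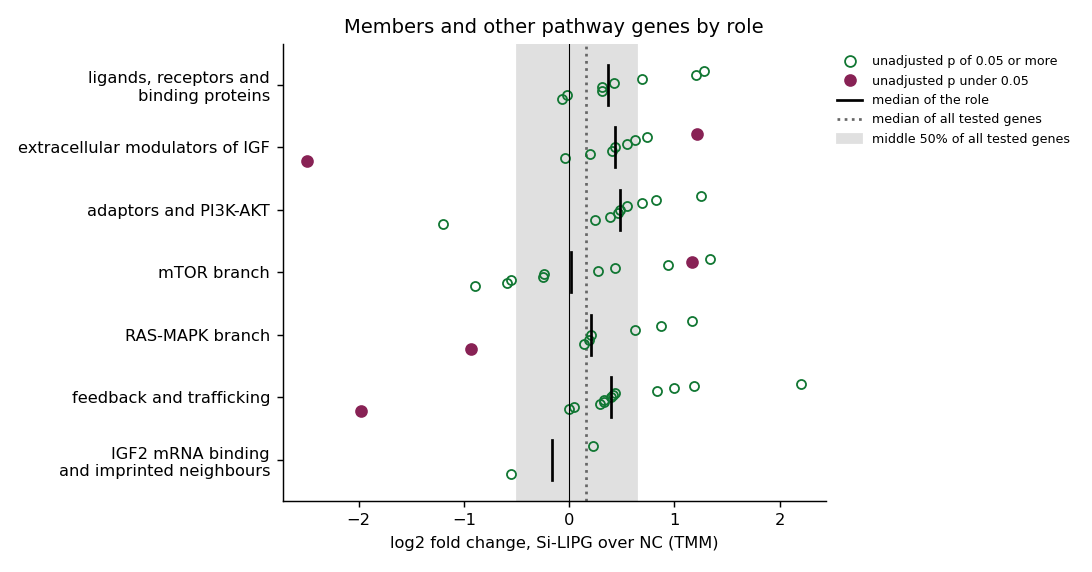
TMM log2 fold changes (Si-LIPG over NC) of the 8 tested IGF genes and of 50 other pathway genes by role, with filled symbols for an unadjusted p under 0.05, black bars for the median of a role and a grey band between the quartiles of all tested genes, -0.50 and 0.65. The 5 filled symbols are ADAM9 and RHEB on the right and IGFALS, GIGYF1 and MAP2K1 on the left.

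Inside the cell, the 9 tested adaptor and PI3K-AKT genes held 8 with higher values, against 58.4% of all tested genes. Of these 9 genes, 0 had an unadjusted p under 0.05 (20.7% of all tested genes). Their median log2 fold change was 0.49, against 0.16 for all tested genes. AKT1, the kinase at the centre of this branch, had 0.25 (edgeR adjusted p = 0.726). Of the 10 tested genes of the mTOR branch, which couples growth factors to protein synthesis, 5 had higher and 5 lower values. RHEB, the small GTPase that switches on mTOR, was the single gene of this branch at the criterion, with a CPM of 37.8 ± 10.3 under NC and 86.7 ± 17.7 under Si-LIPG (SD, n = 3 each) (log2 fold change 1.17, SE 0.39, edgeR adjusted p = 0.0899). Among 7 tested genes of the RAS-MAPK branch, 6 had higher values and 1 lower, with a median log2 fold change of 0.20. The lower one was MAP2K1, which encodes the kinase MEK1, with a CPM of 538.2, 214.3 and 266.3 against 209.9, 164.6 and 157.0. NC 1 was far above the other libraries. Its log2 fold change of -0.93 (edgeR adjusted p = 0.150) was -0.46 without NC 1 and 0.66 when scaled to all reads.

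Of the 13 tested genes of feedback and trafficking, 12 had a log2 fold change above 0 (58.4% of all tested genes) and 1, GIGYF1, had one below 0. That of PHLPP1, counted among the 12, was 0.0030, and its mean CPM was 15.1 under NC and 13.0 under Si-LIPG. GIGYF1, a partner of the receptor-binding adaptor GRB10, had counts of 26, 30 and 50 under NC, and 15, 40 and 7 under Si-LIPG. Its TMM-normalized CPM was 72.4 ± 16.1 (SD, n = 3) and 18.2 ± 13.8 (SD, n = 3). This is -1.98 on the log2 scale (SE 0.57, edgeR adjusted p = 0.0507, DESeq2 adjusted p = 0.0297). The log2 fold change was -0.54 when scaled to all reads (edgeR adjusted p = 0.573). Of the proteins that bind the IGF2 mRNA, IGF2BP2 was tested and had a log2 fold change of -0.55 (edgeR adjusted p = 0.621), while IGF2BP1 was counted 2 times in Si-LIPG 3 and 0 times in the other libraries. RefSeq places NUBP2 at IGFALS, GNB2 at GIGYF1, TM2D2 at ADAM9, and SNAPC5 and LOC106502512 at MAP2K1, each overlapping or closer than 1 kb, and whether reads of these neighbours are part of the counts was not tested.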

How the data were processed

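RNA was measured in 6 poly(A) libraries, 3 NC and 3 Si-LIPG, grouped by their titles. The authors deposited raw read counts per gene and library and 1 table of FPKM values, which had been scaled by gene length and by reads counted on genes. The submitters' processing notes name fastp, HISAT2, SAMtools and HTSeq; the build, strand setting and versions are not given in the sources used here. Library sizes count reads on genes only (the 5 rows naming no gene were dropped).

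Genes were filtered by filterByExpr, normalized by TMM and tested by edgeR 4.0.16 (quasi-likelihood, no covariates) in R 4.3.3, with Benjamini-Hochberg adjustment over the 6574 tested genes. Intervals are at 95% and intervals and limits of a count of 0 (3 counts) cover no other error. The study's criterion asks for a change of more than 1.5-fold at an unadjusted p under 0.05. DESeq2 1.42.0 and limma 3.58.1 on log2(FPKM + 1) and log2(FPKM + 0.1) were alternatives, as were other scalings, other filters, a replicate block, a covariate and leaving out each library. Procedures were tested on simulated data. No libraries of a group were alike within counting error (chi-square over its degrees of freedom was at least 4.21).

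All 10 members are named. Of the pathway list, genes with an adjusted p under 0.05 were to be named, otherwise up to 2 rises and 2 falls per role at the criterion; AKT1, PAPPA, STC2, IGF2BP1, IGF2BP2 and IGFBP7 were named after their values were seen. The members, lists and tests were chosen with earlier results of these data known. One gene that the rule for similar patterns selects is not reported here.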

Additional observations from a re-analysis of the deposited data

How the results depend on the processing

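The IGF genes with an adjusted p under 0.05 were 0 in every setting except 2. Scaling to all reads gave 2 of 8 (11.4% of all tested genes), and at least 10 counts in every sample gave 1 of 5 (25.9%). In the settings with 0, the share of all tested genes ran from 0% to 14.1%. At the unadjusted criterion, 0 of 8 (20.7% of all tested genes) became 5 with library sizes alone (30.2%) and 7 scaled to all reads (46.1%). The count was 1 of 10 with no filter (13.8%) and 1 of 8 with the replicate block (23.6%). With at least 10 counts in every sample it was 1 of 5 (38.7%). Limma gave 5 on log2(FPKM + 1) (29.1%) and 4 on log2(FPKM + 0.1) (25.4%). Leaving out a library gave 0 to 1 (13.1% to 22%). The median log2 fold change of the members minus that of all genes was 0.21 and ranged from 0.029 (without NC 1) to 0.57 (without NC 2) when a library was left out. The cause of these changes was not tested.

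Of 50 pathway genes, 0 had an adjusted p under 0.05 with TMM (6.51% of all tested genes), 1 with library sizes alone (1.87%), 2 with upper quartile scaling (7.13%) and 9 scaled to all reads (11.4%). The count was 2 of 80 with no filter (4.2%), 1 of 23 with at least 10 counts (25.9%) and 3 of 80 with DESeq2 (4.01%). With the replicate block it was 5 of 50 (14.1%), which were ADAM9, RHEB, IGFALS, MAP2K1 and GIGYF1. It was 0 to 1 when a library was left out (0% to 9.02%). Pathway genes at the criterion were 5 of 50 in the main setting (20.7% of all tested genes), 20 with library sizes alone (30.2%) and 33 scaled to all reads (46.1%). They were 8 of 80 with no filter (13.8%), 8 of 50 with the replicate block (23.6%) and 0 of 50 with the covariate (2.04%). Limma gave 19 and 17 of 50 (29.1% and 25.4%), and leaving out a library gave 3 to 10 (13.1% to 22%). Over all genes, 428 calls became 123 with library sizes alone, 750 scaled to all reads, 714 with at least 10 counts, 925 with the replicate block, 0 with the covariate and 0 with limma in both forms. They ranged from 0 to 648 when a library was left out, being 0 without NC 1, NC 2, Si-LIPG 2 or Si-LIPG 3, where edgeR gave 1307, 1616, 888 and 871 genes with an unadjusted p under 0.05 (134 with the covariate, 1912 and 1671 with limma).

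IGF1R turned to 0.51 with library sizes alone, 1.39 scaled to all reads, 0.019 with no filter, 0.20 with at least 10 counts, 0.55 and 0.57 with limma, and ranged from -0.27 to 0.28 when a library was left out. IGFBP2 turned to 0.55, 1.37, 0.062, 0.24, 0.59 and 0.60 in these settings and to 0.019 with upper quartile scaling, and ranged from -0.13 to 0.20 when a library was left out. IGFBP5 ranged from -0.079 (without NC 1) to 1.17 (without NC 2), and IGFBP6 turned to -0.28 with the covariate. The share of IGFBP6 was higher in Si-LIPG by 5.74 percentage points over IGFBP1 to IGFBP7, against 1.25 over IGFBP2 to IGFBP6, which turned to -0.83 without NC 1 and -1.37 without Si-LIPG 3.

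The replicate numbers were not shown to pair the libraries: deviations from the group means correlated at 0.21, 0.06 and 0.11 between same-numbered libraries, and NC 2 correlated better with Si-LIPG 3 (0.09). Low counts limited IGF1, INSR, IGFBP3, IGFBP4 and IGFBP5.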
